A study of Zea mays with 2 samples.

Results

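A small set of maize leaf cells carried transcripts of the machinery that grasses use to bind iron. These iron-related cells were the kept cells with 5 or more transcript molecules of NAS1 (Zm00001d047651), NAS2 (Zm00001d028888), NAS9 (Zm00001d028887) and NAAT1 (Zm00001d053281) together. There were 74 of them among 7374 kept cells, 71 of 4035 in library 1 and 3 of 3339 in library 2. The samples were 2 droplet libraries of protoplasts (cells freed of their walls) from the B73 inbred line, each a pool of the outermost 6 cm of leaf 2 from 6 seedlings at the V2 stage. The plants carried no transgene, and the labels name no treatment that differed between them. The comparison was therefore made inside each library, between the iron-related cells and the 0-UMI cells, which are the kept cells with no molecule of these 4 genes (3620 in library 1 and 3252 in library 2). A UMI (unique molecular identifier) marks 1 captured transcript molecule, and the values are UMI counts or UMIs scaled to the class total (CPM, counts per 1000000).

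Nicotianamine binds iron and other metals in all plants. Nicotianamine synthases (NAS genes) join S-adenosylmethionine (SAM) units into nicotianamine, and in grasses nicotianamine aminotransferase (NAAT) and a reductase turn it into phytosiderophores of the mugineic acid family. Grass roots secrete these to dissolve ferric iron, and the complex is taken back up by Yellow Stripe transporters. Each round releases methylthioadenosine, which the methionine cycle returns to methionine and SAM.

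There were 7340 barcodes in library 1 (88081896 UMIs) and 6104 barcodes in library 2 (41924567 UMIs). Median depth was 21075 UMIs in iron-related cells and 18806 UMIs in 0-UMI cells of library 1, and 12286 UMIs in iron-related cells and 9428.5 UMIs in 0-UMI cells of library 2. The median chloroplast share of UMIs was 1.75% in iron-related and 1.82% in 0-UMI cells of library 1, and 1.00% and 1.19% in those classes of library 2. The libraries shared 11 barcode sequences, of which 6 were kept in both and 0 belonged to iron-related cells.

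The label of mesophyll held against its markers. All 71 iron-related cells of library 1 had more UMIs of the mesophyll markers PEP1, CAH1 and MDH6 than of the bundle sheath markers ME1, RBCS1, RBCS2 and PCK1, with at least 57 mesophyll marker UMIs in each. Bundle sheath markers made up a median of 0.538% and at most 8.18% of their marker UMIs. The 3 iron-related cells of library 2 had between 138 and 394 mesophyll marker UMIs and between 2 and 5 bundle sheath marker UMIs. Among the 0-UMI cells, 50 of 3620 in library 1 and 25 of 3252 in library 2 had more bundle sheath than mesophyll marker UMIs. Such cells were thus rare in both classes, and their absence among 71 and 3 iron-related cells is no contrast. Over a wider list of 7 mesophyll genes, the summed level was 20338 CPM in iron-related and 19835 CPM in 0-UMI cells of library 1, and 23596 CPM in iron-related and 25008 CPM in 0-UMI cells of library 2. None of the 7 passed the test described below, with log2 fold changes between -0.66 and 0.15.

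Iron-related cells made up 1.76% of kept cells in library 1 (95% exact Clopper-Pearson interval 1.38% to 2.21%) and 0.0898% in library 2 (0.0185% to 0.262%). These intervals, which cover counting error only, did not overlap. Each library is 1 sample, so no test was made between them, and protoplast pool, growing time and run cannot be told apart. With each cell thinned to 5000 UMIs the shares were 50 of 4014 cells (1.25%) in library 1 and 2 of 3267 cells (0.0612%) in library 2. A single UMI of the 4 genes was far more widespread, and 10.3% of cells with more mesophyll marker UMIs and 12.3% of cells with more bundle sheath marker UMIs had at least 1 in library 1 (408 of 3978 cells at a median depth of 19069 UMIs, and 7 of 57 cells at 23105 UMIs). The share was thus no lower in cells with more bundle sheath marker UMIs, and single UMIs were not read as expression. No cell with more bundle sheath marker UMIs reached 5 UMIs (0 of 57, which allows a share of up to 6.27% by the exact interval).

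The limit of 5 UMIs fell in a thin range of counts. In library 1, 292 kept cells had 1 UMI, 37 had 2, 9 had 3 and 6 had 4, whereas 2 cells had 5, 3 had 6 and 5 had 7. In library 2, 81 kept cells had 1 UMI, 2 had 2, 1 had 3, and none had between 4 and 10.

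The selecting genes were unequal in number. These values chose the cells and are given as a description. In library 1 the iron-related cells had between 5 and 265 UMIs of the 4 genes, with a median of 35, and 22 cells had 60 or more. NAAT1, the aminotransferase, supplied 88.9% of these UMIs (3658 of 4117), was found in all 71 cells and had between 4 and 221 UMIs per cell, with a median of 32. The synthases were sparser. NAS1 had 169 UMIs in 28 cells, NAS2 129 UMIs in 27 cells and NAS9 161 UMIs in 31 cells. In library 2 the first cell had 29 UMIs of NAAT1 and 33 of the 3 NAS genes, the second had 30 of NAAT1 and none of the NAS genes, and the third had 17 of NAAT1 and 2 of NAS1. Their depths were 9645, 12286 and 28035 UMIs, so the shallowest cell had the most UMIs of the selecting genes. Across the 71 cells of library 1 the UMIs of the 4 genes had a Spearman's rho of 0.19 with total UMIs.

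**Figure D1:**
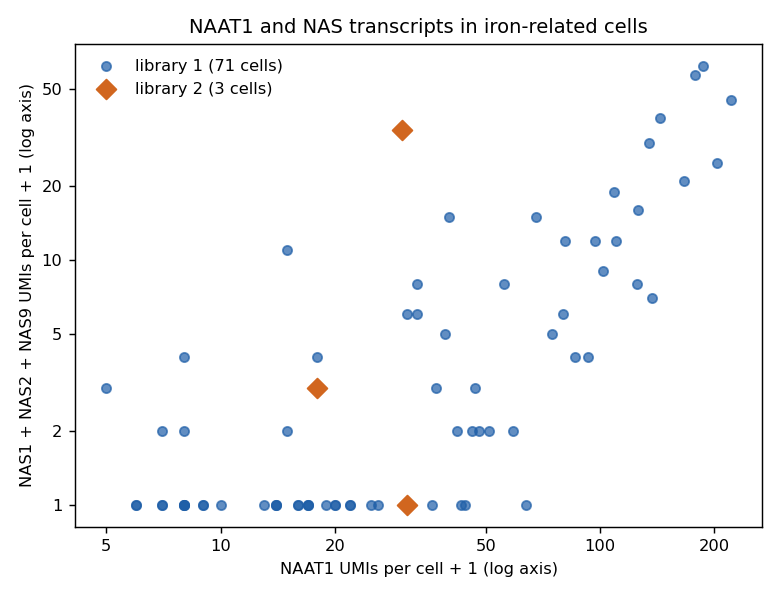
NAAT1 UMIs (horizontal) against the summed UMIs of NAS1, NAS2 and NAS9 (vertical) in each iron-related cell, both plus 1 on log axes, with circles for the 71 cells of library 1 and diamonds for the 3 cells of library 2. The 31 library 1 cells on the lowest line had NAAT1 alone, and the cells with the most NAAT1 also had NAS UMIs.

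Within the selected cells the NAS genes often occurred together. NAS1, NAS2 and NAS9 helped choose these cells, so their overlap is a description only. Of the 28 library 1 cells with NAS1, 23 also had NAS9 (74.2% of the 31 cells with NAS9), and 18 also had NAS2 (66.7% of the 27 cells with NAS2). Over NAS1, NAS2, NAS9 and NAS10, 14 cells had all 4 genes, 11 had 3, 9 had 2, 8 had 1 and 29 had none. These genes are close paralogs, and how the counting treated reads that fit several copies was not checked, so the split of UMIs among them is uncertain.

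To ask what else set the iron-related cells apart, UMIs were added up for each class of each library, and these 4 sums were compared in edgeR (quasi-likelihood test, library as a term). Of 16255 genes tested, which excluded the 4 selecting genes, 56 passed a Benjamini-Hochberg adjusted p-value of 0.05 (0.345% of those tested), 29 higher (0.178%) and 27 lower (0.166%) in iron-related cells. Over all of these genes the median log2 fold change was -0.13, and 976 genes had an unadjusted p under 0.05. Of the 29 higher genes 22, and of the 27 lower genes 27, had that direction in both libraries. Among the 27 lower genes, 24 had 0 UMIs in the iron-related cells of library 2. Only 2983 of all 16255 tested genes had a positive ratio in library 2, so the shared direction of the lower genes was largely set in advance. Since library 2 contributed 3 cells with 49966 UMIs in sum, against 1548961 UMIs in the iron-related cells of library 1, a count of 0 there allows up to 60.04 CPM, and 10214 of the tested genes were at 0. With 1 residual degree of freedom the p-values rest on a variance shared by all genes, and the standard errors (SE) come from the test's F statistic, not from the spread between libraries.

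Other nicotianamine synthases were present in the same cells. NAS10 (Zm00001d047658) had 251 UMIs (162 CPM) in 29 iron-related cells of library 1 and 11 UMIs (220 CPM) in 1 cell of library 2, against 2 UMIs in all 0-UMI cells of each library. Its log2 fold change was 11.74 ± 1.09 (SE, adjusted p 2.50e-23 in edgeR), and it passed in all 14 alternative fits in which it could be tested. Within library 1 the ratio of levels was 5806 (95% exact conditional interval 1591 to 48208). Within library 2 it was 3716 (811 to 34505). Both intervals take UMIs as independent draws, although the 11 UMIs of library 2 came from 1 cell. NAS6 (Zm00001d047639) had 254 UMIs in 8 iron-related cells of library 1, 127 of them in 1 cell, and 0 UMIs in library 2, against 2 UMIs in 0-UMI cells of each library. It did not enter the test because of the filter on low counts. All 8 cells with NAS6 also had UMIs of NAS1, NAS2 or NAS9. NAS3 (Zm00001d033496), by contrast, was at 0 UMIs in iron-related cells of both libraries and had 14 UMIs in 1 of the 0-UMI cells of library 1. As paralogs of the selecting genes, NAS10 and NAS6 are not fully independent of the choice of cells.

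Genes listed here for the later steps and for transport were also higher. TAAT and Zm00001d028360 are annotated only as a tyrosine aminotransferase and an NAD(P)-linked oxidoreductase, and their role in this pathway was not tested. Of 4 listed genes of phytosiderophore synthesis and transport 3 rose, while 0.178% of all 16255 genes tested were higher. The median log2 fold change of the list was 3.42 against -0.13 for all genes. All 3 are also on the study's list for a mesophyll cluster named MS5. That list was chosen on these samples, so this count is not independent evidence.

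TAAT (Zm00001d016441), annotated as a tyrosine aminotransferase, had 2021 UMIs in iron-related cells of library 1 (1305 CPM, found in 93.0% of cells) and 7 UMIs in those of library 2 (140 CPM, with 4, 1 and 2 UMIs in the 3 cells). It had 20.7 CPM in 0-UMI cells of library 1 (20.9% of cells) and 21.7 CPM in those of library 2. Per cell of library 1 the iron-related cells had between 0 and 163 UMIs, with a median of 17. The log2 fold change was 4.20 ± 0.89 (SE, adjusted p 0.00187 in edgeR), with 5.91 in library 1 and 2.05 in library 2 when each was taken alone.

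The unnamed gene Zm00001d028360, annotated as an NAD(P)-linked oxidoreductase, had 1114 CPM in iron-related cells of library 1 and 720 CPM in those of library 2, against 50.3 and 56.9 CPM in the 0-UMI cells of the same libraries. It was found in 98.6% of the iron-related cells of library 1, more than any other listed gene of this group, and in 56.4% of the 0-UMI cells. The 3 iron-related cells of library 2 had 22, 11 and 3 UMIs. The log2 fold change was 3.73 ± 0.76 (SE, adjusted p 0.000653 in edgeR).

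YS1 (Zm00001d017429), the Yellow Stripe transporter of iron phytosiderophores, was the gene of this group with the larger ratio in library 2. It had 410 CPM in iron-related cells of library 1 and 1421 CPM in those of library 2 (22, 1 and 48 UMIs in the 3 cells), against 62.0 CPM in 0-UMI cells of library 1 and 76.4 CPM in those of library 2. Its log2 fold change was 3.11 ± 0.73 (SE, adjusted p 0.00991 in edgeR). YS1 was not particular to iron-related cells, since 28.5% of the 0-UMI cells of library 1 (1033 cells) had at least 1 UMI. Neither were TAAT and Zm00001d028360, found in 20.9% and 56.4% of the same 0-UMI cells. YSL7 (Zm00001d025887), a Yellow Stripe-like transporter gene, had 59.4 CPM in iron-related and 59.1 CPM in 0-UMI cells of library 1, and 0 UMIs against 102 CPM in library 2 (log2 fold change -0.99 ± 0.79, adjusted p 1.00 in edgeR).

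The calls for these 3 genes rested on the few cells of library 2. Without the library 2 cell with 30 UMIs of the selecting genes, none of the 3 passed (adjusted p 0.0949 for TAAT, 0.0933 for Zm00001d028360 and 0.162 for YS1 in edgeR). Without the cell with 19 UMIs 1 passed. Their log2 fold changes stayed between 1.43 and 4.96 in all alternative fits.

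**Figure D2:**
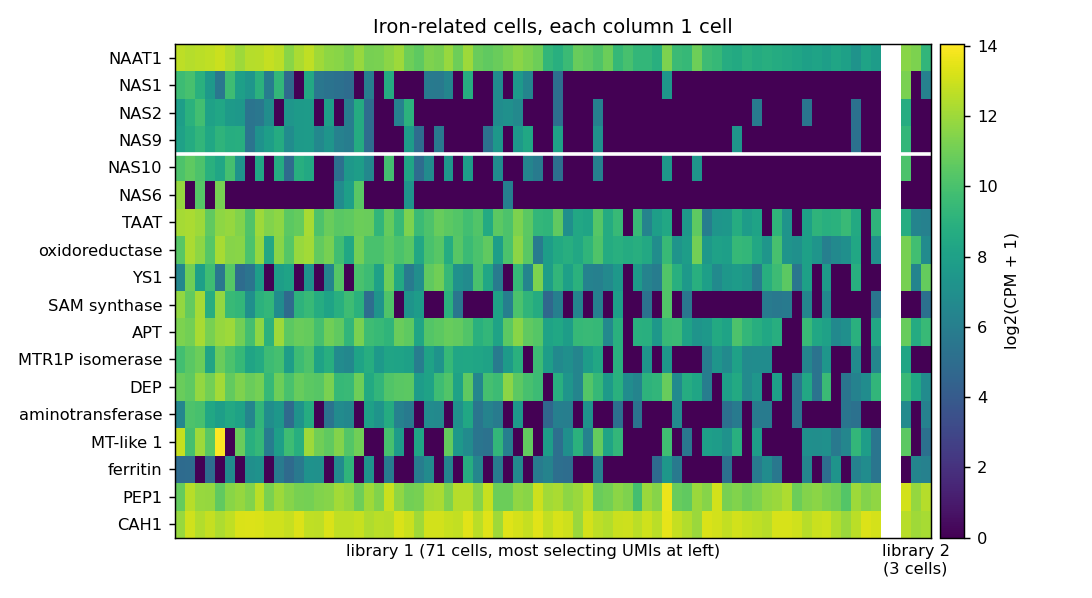
Level of 18 genes in each iron-related cell, as log2 of CPM plus 1 (colour), with the 71 cells of library 1 from most to fewest UMIs of the selecting genes and the 3 cells of library 2 at the right; the 4 selecting genes are above the white line. TAAT, Zm00001d028360 (oxidoreductase), Zm00001d030895 (APT) and Zm00001d049191 (DEP) were found in nearly all cells, while NAS10, NAS6 and the SAM synthase Zm00001d010920 had most of their signal in the cells at the left.

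The methionine cycle was the list with the most genes higher. Of 10 genes tested 6 rose and 0 fell, with a median log2 fold change of 3.24, against -0.13 for all genes. Among all 16255 genes tested 0.178% were higher. All 6 are also on the study's MS5 list, which was chosen on these samples, so this count is not independent evidence either. Without 1 of the 3 library 2 cells in turn, 5, 4 and 4 genes passed.

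Methylthioribose-1-phosphate isomerase (Zm00001d049042), which acts on the sugar left after adenine is removed from methylthioadenosine, had the largest fold change of the list. It had 332 CPM in iron-related cells of library 1 (515 UMIs in 80.3% of cells) against 2.48 CPM in 0-UMI cells (3.92% of cells). In library 2 the 3 UMIs in iron-related cells (60.04 CPM) were all in 1 cell, against 19 UMIs (0.563 CPM) in 0-UMI cells, a ratio of 107 (95% exact conditional interval 20.2 to 362). That interval takes UMIs as independent draws, although these 3 came from 1 cell. The log2 fold change was 6.70 ± 1.0 (SE, adjusted p 6.26e-08 in edgeR).

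The next enzyme of the cycle, annotated as a methylthioribulose-1-phosphate dehydratase and enolase-phosphatase (DEP, Zm00001d049191), had 895 CPM in iron-related cells of library 1 and 280 CPM in those of library 2, against 17.4 and 8.41 CPM in the 0-UMI cells. The 3 cells of library 2 had 7, 4 and 3 UMIs. DEP was also found in 25.9% of the 0-UMI cells of library 1. The log2 fold change was 5.06 ± 0.83 (SE, adjusted p 1.81e-06 in edgeR).

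Adenine phosphoribosyltransferase (APT, Zm00001d030895), which salvages the adenine that the cycle releases, had 1100 CPM in iron-related cells of library 1 and 841 CPM in those of library 2, against 18.99 CPM in 0-UMI cells of library 1 and 19.02 CPM in those of library 2. All 3 cells of library 2 had it, with 17, 5 and 20 UMIs. The log2 fold change was 5.32 ± 0.80 (SE, adjusted p 7.85e-08 in edgeR), and the ratio was similar in both libraries, at 57.9-fold in library 1 and 44.2-fold in library 2. The isomerase, DEP and this APT gene passed in every alternative fit in which they could be tested (16, 17 and 17 fits), with a highest adjusted p of 0.0151, for DEP. A second APT gene, Zm00001d041352, had 549 CPM in iron-related and 80.7 CPM in 0-UMI cells of library 1, and 220 CPM and 78.05 CPM in those classes of library 2. It did not pass (log2 fold change 1.86 ± 0.77, adjusted p 0.614 in edgeR).

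SAM synthase genes, which return methionine to SAM, differed among themselves. Zm00001d010920 had 418 CPM in iron-related and 13.1 CPM in 0-UMI cells of library 1 (647 and 936 UMIs) and 1 UMI against 253 UMIs in library 2, with a log2 fold change of 3.70 ± 0.98 (SE, adjusted p 0.0493 in edgeR). It lost the call in 7 of 16 alternative fits, with adjusted p-values from 1.87e-05 to 0.517. Zm00001d024754 had 45.2 CPM in iron-related and 4.05 CPM in 0-UMI cells of library 1, and 0 UMIs in iron-related against 4.24 CPM in 0-UMI cells of library 2, which is below the 60.04 CPM that a count of 0 allows there. It passed (log2 fold change 3.16, adjusted p 6.45e-06 in edgeR) on library 1 alone, and did not pass in DESeq2 (adjusted p 1.00). The third, Zm00001d009146, had 115 CPM in iron-related and 90.3 CPM in 0-UMI cells of library 1 and did not pass.

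An aspartate aminotransferase (Zm00001d020696), listed here because a transamination closes the cycle, had 124 CPM in iron-related and 9.27 CPM in 0-UMI cells of library 1, and 3 UMIs (60.04 CPM) against 6.72 CPM in library 2. Its log2 fold change was 3.32 ± 0.79 (SE, adjusted p 0.0106 in edgeR). Genes of the methyl-transfer branch had no such change. Adenosylhomocysteinase (Zm00001d049239) had 16.8 CPM in iron-related and 13.9 CPM in 0-UMI cells of library 1, and homocysteine S-methyltransferase (Zm00001d048060) had 86.5 CPM and 114 CPM, both with 0 UMIs in the iron-related cells of library 2.

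**Figure D3:**
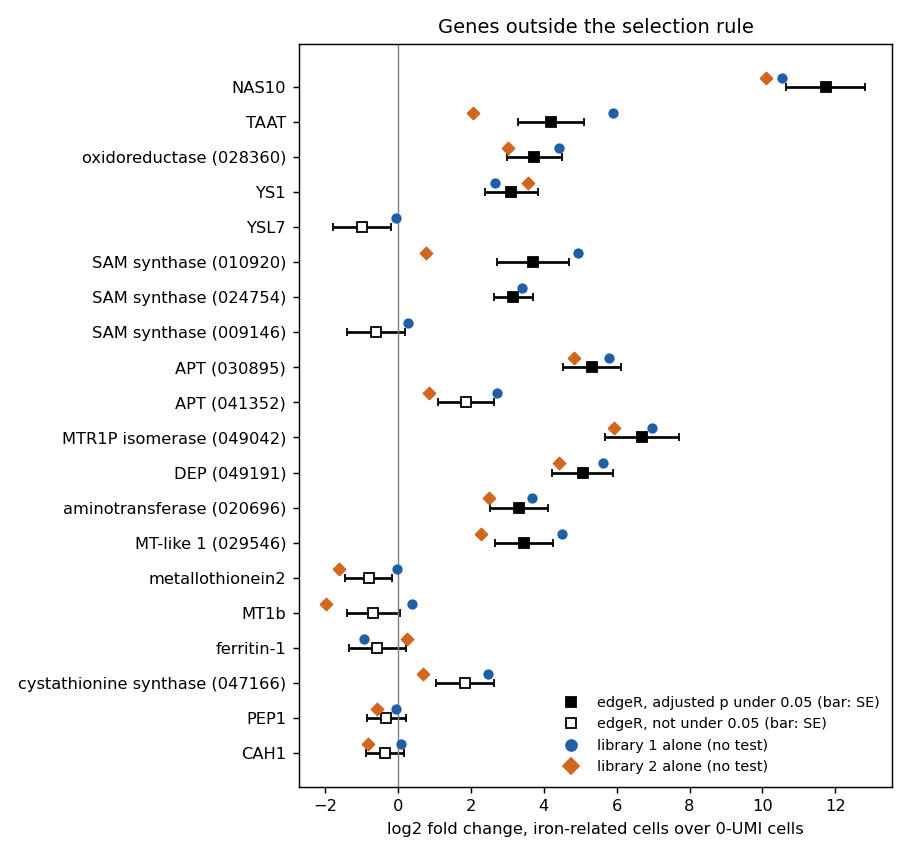
Log2 fold change of iron-related over 0-UMI cells for 20 genes, as squares with bars of 1 SE from edgeR (filled where the adjusted p was under 0.05), beside the ratio in library 1 alone (circles) and in library 2 alone (diamonds, drawn only where iron-related cells of library 2 had a UMI). NAS10 and 9 genes listed under phytosiderophore synthesis and transport or the methionine cycle stand to the right with filled squares. The metallothionein-like gene Zm00001d029546 does so too, while PEP1 and CAH1 lie near 0. Ferritin-1 is at -0.58 with an open square.

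Neighbouring pathways gave no call. Since only 0.345% of all genes tested were called, 0 calls in lists this short say little about these pathways. Phosphoribosyl pyrophosphate synthesis, which supplies the second substrate of APT, had 0 of 3 genes past the threshold (median log2 fold change 0.62), and SAM decarboxylases, which draw SAM into polyamines, had 0 of 2 (median -0.32). Of 14 genes of sulfur assimilation and of cysteine, glutathione and methionine synthesis 0 passed (median -0.33). The highest was a cystathionine gamma-synthase (Zm00001d047166), which commits carbon to methionine, with 238 CPM in iron-related and 41.2 CPM in 0-UMI cells of library 1 and 3 UMIs (60.04 CPM) in iron-related and 24.1 CPM in 0-UMI cells of library 2 (log2 fold change 1.83 ± 0.81, adjusted p 0.712 in edgeR).

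Genes that use or store iron did not pass either. Of 14 genes for iron storage, iron-sulfur proteins and haem 0 were called, with a median log2 fold change of -0.07. Ferritin-1 (Zm00001d052316), the plastid iron store, had 56.2 CPM in iron-related and 102 CPM in 0-UMI cells of library 1, and 3 UMIs (60.04 CPM) in iron-related and 32.4 CPM in 0-UMI cells of library 2 (log2 fold change -0.58 ± 0.78). Of 8 metal transporters tested 0 were called (median -0.45). A gene that misses the threshold was not shown to be equal in both classes, since SEs in these lists were mostly between 0.5 and 0.9 on the log2 scale. With 0.345% of all genes tested called, 0 calls here say little about iron use or storage.

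Metallothioneins, small cysteine-rich metal-binding proteins, were divided. Of 8 tested, only the metallothionein-like gene Zm00001d029546 rose, with 948 CPM in iron-related and 40.2 CPM in 0-UMI cells of library 1, and 300 CPM and 39.3 CPM in library 2 (log2 fold change 3.46 ± 0.80, SE, adjusted p 0.00718 in edgeR). A single cell gave 368 of its 1469 UMIs in library 1 and another gave 14 of its 15 UMIs in library 2, and without that library 2 cell it did not pass (adjusted p 0.575). The list's median was -1.28, and MT1b (Zm00001d048611) had 607 CPM in iron-related and 449 CPM in 0-UMI cells of library 1, and 160 CPM and 406 CPM in library 2, without a call.

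Among 14 bHLH (basic helix-loop-helix) transcription factors tested, 1 rose and 1 fell (median -0.37, or -0.17 with genes at 0 UMIs in iron-related cells set at their lower bound). Zm00001d025205, annotated as a putative helix-loop-helix protein, had 14 UMIs in 6 iron-related cells of library 1 and 7 UMIs in 2 cells of library 2, against 6 UMIs and 1 UMI in the 0-UMI cells of those libraries. Its log2 fold change was 8.21 ± 0.74 (SE, adjusted p 6.56e-25 in edgeR). It remained called in all 14 alternative fits in which it was tested, although it was found in only 8 of the 74 iron-related cells. A gene annotated as bHLH47 (Zm00001d029339), named after an iron-deficiency regulator of Arabidopsis, had 162 CPM in iron-related and 59.2 CPM in 0-UMI cells of library 1, and 280 CPM and 85.98 CPM in those classes of library 2 (log2 fold change 1.24 ± 0.72, adjusted p 0.926 in edgeR).

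Outside the lists, 7 genes met the size rule for higher genes. Zm00001d019221, annotated as nitrile-specifier protein 1, rose most. It had 61 UMIs in 12 iron-related cells of library 1 and 4 UMIs in 1 cell of library 2, against 9 and 2 UMIs in the 0-UMI cells (log2 fold change 8.45 ± 0.64, SE, adjusted p 9.19e-36 in edgeR). Of the 12 library 1 cells, 11 had UMIs of NAS1, NAS2 or NAS9. A pair of genes with no annotation here came next. Zm00001d045965 had 546 CPM in iron-related and 15.6 CPM in 0-UMI cells of library 1, and 240 CPM and 8.41 CPM in library 2 (log2 fold change 4.67 ± 0.83, SE, adjusted p 2.06e-05 in edgeR). Zm00001d031621 had 555 CPM and 22.1 CPM in library 1, and 460 CPM and 24.1 CPM in library 2 (log2 fold change 4.12). Zm00001d024302, Zm00001d012259, Zm00001d043190 and Zm00001d009773 had log2 fold changes of 4.0, 3.58, 2.49 and 1.78 on at most 32 UMIs each in iron-related cells. The other 10 higher genes had opposite directions in the libraries (6 genes) or under 20 UMIs in iron-related cells (7 genes), some of them both.

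The study's own list for a mesophyll cluster named MS5 held 17 of the 29 higher genes and none of the lower ones. The study did not detect this cluster in its second experiment and called it a likely artifact. That list was chosen by the study on these samples and is not independent evidence. Of its 201 genes tested, 201 had a positive ratio in library 1 and 112 in library 2, where 17 were at 0 in iron-related cells. Their median log2 fold change was 0.41.

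The lower genes included markers of other cell types, which the 0-UMI cells still held. Among all 16255 genes tested 0.166% were lower. Of 9 bundle sheath genes 4 fell and 0 rose (median log2 fold change -3.40), and of 5 abaxial sheath and vascular genes tested 2 fell (median -6.29, or -3.06 with genes at 0 set at their bound). The summed bundle sheath list was at 183 CPM in iron-related and 1409 CPM in 0-UMI cells of library 1, and at 260 CPM and 1307 CPM in library 2, with 0 of 9 genes at 0 UMIs in the iron-related cells of library 1 and 5 of 9 in those of library 2. With the cells that had more bundle sheath than mesophyll marker UMIs left out of both classes, 5 genes were lower (0.0309% of 16163 tested) and 27 higher (0.167%), and all 5 and all 27 were among the genes called with those cells.

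Without those cells ME1 (Zm00001d000316, the bundle sheath decarboxylase) had a log2 fold change of 0.39 instead of -3.49, and fructose-bisphosphate aldolase FBPA (Zm00001d023559) 0.02 instead of -4.23. RBCS2 (Zm00001d004894) and PCK1 (Zm00001d028471) went to -0.21 and -0.50 and were no longer called. The sucrose exporter SWEET13a (Zm00001d023677) went to -0.12, and SWEET13c (Zm00001d041067), at 0 UMIs in iron-related cells, was too low to be tested.

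The 5 genes that were lower either way were bHLH68 (Zm00001d025752), the late embryogenesis abundant gene Zm00001d038870, the unannotated genes Zm00001d031794 and Zm00001d029099, and endochitinase precursor4 (Zm00001d017152). bHLH68 was at 0 UMIs in all 74 iron-related cells, against 949 UMIs in 13.4% of the 0-UMI cells of library 1 and 449 UMIs in library 2. Its level in library 1 was at least 6.84-fold lower in iron-related cells, with the 0 set at 3 UMIs for the library. The corresponding bounds in library 1 were 5.55-fold for Zm00001d038870 and 5.63-fold for Zm00001d031794, and in library 2 a count of 0 set no bound for these 3 genes. Zm00001d029099 had 1 UMI in iron-related and 2371 UMIs in 0-UMI cells of library 1, a ratio of 0.0195 (95% exact conditional interval 0.000494 to 0.109). However, it was found in 1.41% of iron-related and 1.16% of 0-UMI cells, so the share of cells with it was not lower. The interval takes UMIs as independent draws, although the 2371 UMIs came from 42 cells.

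Endochitinase precursor4 was decided by library 2. In library 1 it was found in 93.0% of iron-related and 95.03% of 0-UMI cells, at 3130 CPM and 4185 CPM. In library 2 all 3 iron-related cells had 0 UMIs, against 4039 CPM in 0-UMI cells, 90.2% of which had it, so that its level there was at least 67.3-fold lower. Its log2 fold change was -3.53 ± 0.85 (SE, adjusted p 0.0127 in edgeR), with -0.48 in library 1 alone. It lies outside the size rule and is named because it was seen among the 5.

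Of the 10 genes with the largest falls by the size rule, the other 7 were the tetraspanin gene Zm00001d016364, Zm00001d014081, phosphoribulokinase (Zm00001d017711, a Calvin cycle enzyme), glycine cleavage protein H1 (Zm00001d023699), Zm00001d016625, the MYB-domain gene Zm00001d035605 and cinnamoyl CoA reductase1 (Zm00001d032152). Each had at most 2 UMIs in the iron-related cells, and none passed without the bundle sheath marker cells.

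Heat shock genes, used as signs of stress during protoplast release, gave 0 calls of 14 (median -0.75, or -0.59 with a gene at 0 set at its bound). Beside the 0.345% called over all genes tested, this count says little about stress. Their summed level was 1608 CPM in iron-related and 1751 CPM in 0-UMI cells of library 1, and 1801 CPM and 2200 CPM in library 2.

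Levels of several other pathway genes followed the number of selecting UMIs in library 1. That number chose the cells, and the genes were listed with these data known, so the trend is a description only. TAAT had 20.7 CPM in 0-UMI cells (3620 cells) and 37.4 CPM in cells with 1 to 4 UMIs (344 cells). It then had 331 CPM in cells with 5 to 19 UMIs (28 cells), 1048 CPM with 20 to 59 UMIs (21 cells) and 2514 CPM with 60 or more (22 cells). DEP had 266, 701 and 1696 CPM in the same 3 bins, and NAS10 had 3.43, 46.4 and 413 CPM. YS1 differed, with 230, 540 and 503 CPM, and so did the mesophyll gene PEP1, with 3028, 4092 and 3492 CPM. Ferritin-1 had 32.6, 48.9 and 86.3 CPM, below the 102 CPM of 0-UMI cells in each bin. Median depth was 20017 UMIs in the lowest of these bins and 25093.5 UMIs in the highest.

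**Figure D4:**
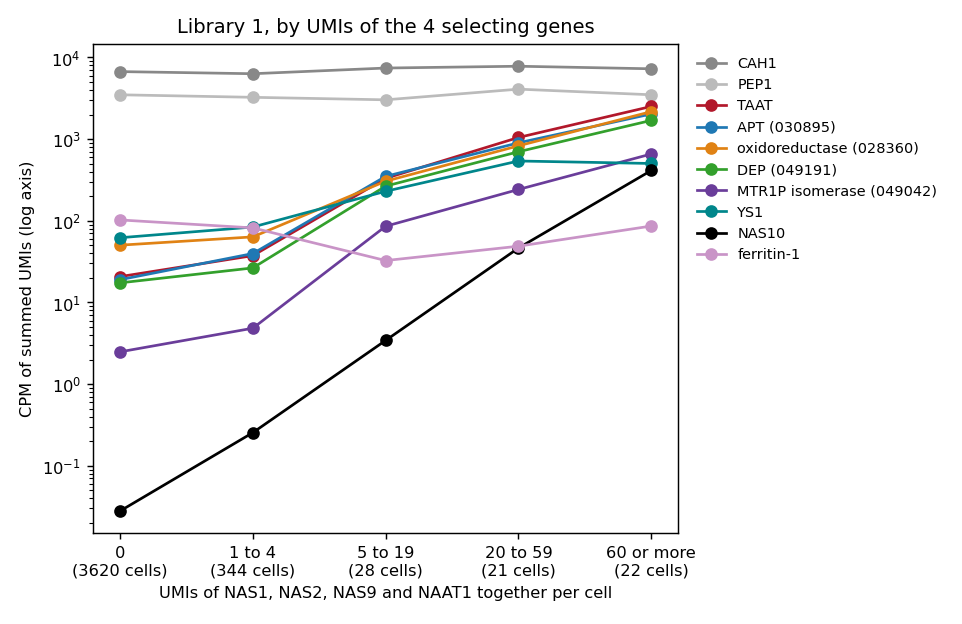
CPM of summed UMIs (log axis) of 10 genes in kept cells of library 1, by the UMIs of the 4 selecting genes per cell, with the number of cells below each bin. Levels of TAAT, APT, the oxidoreductase, DEP, the isomerase and NAS10 were higher in each bin from 0 to 60 or more. CAH1 and PEP1 stayed within a narrow range. The bins count the genes that chose the cells.

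Within iron-related cells of library 1, the ranks of CPM across the 71 cells gave the same order as a description. Spearman's rho with NAAT1 was 0.79 for DEP, 0.78 for APT Zm00001d030895, 0.78 for Zm00001d028360, 0.77 for TAAT, 0.72 for the isomerase and 0.68 for NAS10. These points share 1 library, and NAAT1 was used to choose the cells.

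Genes of the pathway were counted per cell as a description. The 6 genes below were each found in 80.3% to 98.6% of iron-related cells of library 1. The contrast with 0-UMI cells was thus largely set by choosing them. Of TAAT, YS1, Zm00001d028360, APT Zm00001d030895, the isomerase and DEP, 6 genes put together after their values were seen, all 6 were found in 47 of 71 iron-related cells (66.2%) and in 4 of 3620 0-UMI cells (0.11%) of library 1. In library 2, 1 of 3 iron-related cells had all 6 and the other two had 5, against 0 of 3252 and 6 of 3252 of the 0-UMI cells.

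Cells with and without NAS UMIs were set side by side. In library 1, 40 iron-related cells had 1 or more UMIs of NAS1, NAS2 or NAS9 and 31 had NAAT1 alone, at median depths of 20653 and 21832 UMIs. TAAT was at 1993 CPM in cells with NAS UMIs and 415 CPM in cells with NAAT1 alone, DEP at 1373 and 275 CPM, and APT Zm00001d030895 at 1646 and 394 CPM. The cells with NAAT1 alone were thus above the 0-UMI cells (20.7, 17.4 and 18.99 CPM for these genes) for each. The SAM synthase Zm00001d010920 had 706 CPM in cells with NAS UMIs and 44.4 CPM in cells with NAAT1 alone, and the metallothionein-like gene Zm00001d029546 had 1597 and 110 CPM. YS1 was closer, at 491 and 305 CPM. Cells with NAS UMIs also had more NAAT1 (3575 CPM) than those with NAAT1 alone (791 CPM), and since NAAT1 and NAS UMIs chose the cells, no test was made. Tested separately against the 0-UMI cells, 19 genes were higher in cells with NAS UMIs and 18 in cells with NAAT1 alone, where library 2 gave 2 cells and 1 cell.

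Finally, iron-related cells lay near each other after a partial exclusion of genes. The selecting genes and all listed genes other than the MS5 list were left out. Other genes of the MS5 list, chosen on these samples, were not left out. Nor was the called gene Zm00001d045965, which had a Spearman's rho of 0.78 with NAAT1. The closeness is thus not independent of how the cells were chosen. Of the 15 nearest cells of an iron-related cell in library 1, 9.58% were iron-related, against 1.08% for 0-UMI cells and a share of 1.76% in the library. The value was 18.2% for the 22 cells with 60 or more selecting UMIs, 12.8% for cells with NAS UMIs and 5.38% for cells with NAAT1 alone. In library 2 it was 4.44% for iron-related cells, against 0.0574% for 0-UMI cells and a share of 0.0898%. There, 2 of the 3 cells had an iron-related neighbour. Most neighbours of an iron-related cell were therefore other kept cells, and these values are descriptions with no test.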

How the data were processed

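Protoplasts of maize leaf 2 were profiled as 2 libraries with 10x Chromium 3' chemistry. The deposited values are raw UMI counts per gene and barcode with no normalization, which the authors made with Cell Ranger (3.1.0 in the matrix header) and STAR on the B73 RefGen_v4 annotation; Seurat 3.1 is named in the submitters' processing notes for later steps. The libraries were not pooled. Gene symbols and annotations were used only where the study pairs them with an ID, and 0 of 44146 IDs were found in the reference table of another assembly.

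A barcode was kept with more than 1800 but fewer than 7000 genes found, a chloroplast share below 4% and a mitochondrial share below 0.75% of its UMIs. These limits left more cells than the study states. No doublet caller was run; the upper limit on genes is the only guard. Because cells of a library are no replicates, each class was added up within each library (4 sums) and tested with edgeR 4.0.16 (quasi-likelihood test, TMM, filterByExpr, library as a term, threshold 0.05); the test was also run on simulated data with known changes. Both classes of a library come from the same pool, which is why library is a block. Per the study's methods the plants of library 2 were raised at another time than those of library 1. Values for 1 library alone are log2 CPM differences (prior count 2). Printed CPM values use class totals. Intervals (95%, exact Clopper-Pearson or conditional binomial) cover counting error only, and a count of 0 was read as allowing 3 UMIs. Neighbours came from 50 principal components of 2000 variable genes (scanpy 1.11.5).

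The cells, gene lists and tests were chosen with earlier results of these data known. Genes named are those of the lists that passed or had 10 or more UMIs in iron-related cells, and, outside them, the 10 largest changes in each direction that passed with the same sign in both libraries and with 20 or more UMIs in the higher class, without a single cell giving 50% or more of a higher gene's UMIs. DESeq2 1.42.0, other scalings, filters, cell limits and reference cells were tried as alternatives. Leaving out each library 2 cell in turn was added after seeing the data.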

Additional observations from a re-analysis of the deposited data

Results flagged for a closer look

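Among barcodes of library 1 that the limits on cells left out, 10 of 3305 also reached 5 UMIs of the selecting genes, with up to 52 UMIs, and 4 of them had UMIs of NAS1, NAS2 or NAS9. This was seen because these barcodes enter none of the comparisons. Of the 10, 6 had too few detected genes, 6 too large a chloroplast share and 6 too large a mitochondrial share; some failed several limits. In library 2, 0 of 2765 such barcodes reached 5 UMIs.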

How the results depend on the processing

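The 29 higher and 27 lower genes became 31 and 32 with RLE size factors, 36 and 20 with class totals alone, 26 and 12 in DESeq2 (22 and 9 of them shared), 41 and 60 with no filter, and 6 and 0 with 10 UMIs in every sum, which left 816 genes. Without the replicate block they were 25 and 22. Changing the cells gave 45 and 35 with 3 or more UMIs, 19 and 11 with NAS UMIs, 18 and 29 with NAAT1 alone, 18 and 30 against depth-matched 0-UMI cells (7879 genes), and 27 and 5 without bundle sheath marker cells. Without the library 2 cell with 19 UMIs, 39 and 58 were called, and without the other two cells in turn 27 and 32, and 20 and 20. Of the phytosiderophore list, 0 passed with NAS UMIs, with NAAT1 alone, and without the library 2 cell with 30 UMIs, and 1 without the cell with 19 UMIs. Of the methionine cycle, 2 passed with 10 UMIs in every sum. The causes were not tested.

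Zm00001d024754 reversed in library 2 alone (without replicate 1, -5.96; without replicate 2, 3.39), where it had 0 UMIs. Without bundle sheath marker cells ME1 (0.39), FBPA (0.021) and Zm00001d016625 (0.82) reversed, and Zm00001d024302 reversed with NAAT1 alone (-7.37). The share of iron-related cells in library 1 moved to 1.25% after thinning, to 0.719% with 3 or more UMIs of NAS1, NAS2 and NAS9, and to 1.28% of barcodes over 500 genes. Their share among neighbours in library 1 moved to 7.14% with 20 components. In the 3 cells of library 2 a count of 0 allows up to 60.04 CPM.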
